A study of Mus musculus with 28 samples.

Results

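The transcripts of 8 inhibitors of NF-κB signalling and mRNA stability were followed in mouse bone marrow-derived macrophages. They were Tnfaip3, Tnip1, Cyld, Traf1, Zfp36, Zfp36l1, Zfp36l2 and Zc3h12a, chosen by gene name from the 27672 gene names on the array. All 8 were on the array, with 12 probes in all, and each gene was read from its brightest probe. All 8 were well above background on every one of the 28 arrays, by the scanner software's call, and no member spot was saturated.

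Macrophages were grown from the marrow of C57BL6/J mice of 8 to 12 weeks in CSF1 (200 ng/ml), the growth factor that all 6 groups received, and cells of several animals were pooled (2 males and 1 female). From day 7 they were left untreated (7 arrays) or received IL-4 (10 ng/ml, 4 arrays) or IFN-γ (100 U/ml, 3 arrays) for 18 h. A matching group of each received LPS (10 ng/ml) for the last 4 h, giving LPS alone (7 arrays), IL-4 with LPS (4 arrays) and IFN-γ with LPS (3 arrays). IL-4 is a cytokine of type 2 immunity, IFN-γ a cytokine of antimicrobial immunity and LPS the bacterial ligand of the receptor TLR4.

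TLR4 signals through adaptor proteins and ubiquitin chains to the kinase that frees NF-κB, which then turns on inflammatory genes. Signalling is stopped by proteins that edit or bind those ubiquitin chains, among them A20 (Tnfaip3), ABIN-1 (Tnip1) and the deubiquitinase CYLD, while TRAF1 is an adaptor that modulates signalling downstream of TNF family receptors. A further layer acts on the messengers themselves: tristetraprolin (Zfp36) and its relatives (Zfp36l1, Zfp36l2) bind AU-rich elements and recruit deadenylases, and the endonuclease Regnase-1 (Zc3h12a) cuts stem-loops in cytokine transcripts.

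Brightness differed between arrays, with a 75th percentile of the signal between 582 and 2113 intensity units and 60% to 78.6% of probes well above background. Across genes, arrays of the same group had correlations of 0.94 to 0.991. All 10 macrophage markers were well above background on every array. Arg1, a textbook IL-4 target, checked the labels. It was at 2.29 or higher on the 8 arrays with IL-4 and at -3.85 or lower on the others, on the log2 scale explained in the next paragraph. A deposited table of processed values was not used, because 26 of its 28 columns matched the scanner data of another array better than their own, 13 of them an array of another group. Whether the order of the table's columns or that of the scanner files is at fault was not settled for arrays of the same group. The groups of the scanner files are borne out by Arg1 for IL-4. Cxcl9 was at 6.94 or higher on the arrays with IFN-γ and at 6.07 or lower on the others. Il6 was at 3.08 or higher on the arrays with LPS and at -1 or lower on the others. The experiment letters of the untreated and LPS arrays could not be verified, and values that rest on letters carry that limit. Summed levels of endothelial markers, relative to the array's 75th percentile, were 1.21 to 2.95 in untreated, 8.94 to 13.6 in LPS, 0.676 to 0.749 in IL-4, 4.11 to 6.71 in IL-4 with LPS, 7.07 to 14.4 in IFN-γ and 7.95 to 17 in IFN-γ with LPS arrays. All 4 endothelial markers were well above background on every array, except that 3 of 4 were so in the untreated group. The 5 T cell markers on the array summed to 0.204 to 0.443 in untreated, 1.39 to 4.98 in LPS, 0.258 to 0.521 in IL-4, 0.863 to 3.52 in IL-4 with LPS, 0.263 to 0.454 in IFN-γ and 0.501 to 0.64 in IFN-γ with LPS arrays, and Cd3d was above background on no IL-4, IFN-γ or IFN-γ with LPS array. The 5 dendritic cell markers summed to 0.278 to 0.488 in untreated, 1.3 to 8.14 in LPS, 0.416 to 0.471 in IL-4, 1.03 to 2.39 in IL-4 with LPS, 0.418 to 1.52 in IFN-γ and 3.53 to 11.3 in IFN-γ with LPS arrays, and Cd209a was above background on no array outside the untreated group. The 5 B cell markers summed to 2.14 to 4.23 in untreated, 1.17 to 2.42 in LPS, 1.3 to 2.64 in IL-4, 3.16 to 7.16 in IL-4 with LPS, 1.31 to 1.68 in IFN-γ and 0.745 to 0.92 in IFN-γ with LPS arrays. By the tests described below, LPS alone raised 1 of 5 T cell and 1 of 4 tested dendritic cell markers. It raised 2 of 4 endothelial markers, where 20.8% of all genes were called higher. For IL-4 with LPS against LPS alone, 1 of 5 B cell markers was higher, against 4.37% of all genes. These sums can thus rest on 1 or 2 markers. Markers of NK cells, mast cells, red cells and stroma summed to 0.817 or less on every array, and 7 neutrophil markers to between 2.46 and 8.22. The part of other cells in the results below was not tested. In these bulk samples, fewer cells of a type and less RNA per cell cannot be told apart.

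Levels are log2 signals relative to the array's 75th percentile and are compared between groups for 1 gene, never between genes. Differences are log2 fold changes ± standard error from 1 limma model of 6 group means over 22453 genes, with p-values adjusted by the Benjamini-Hochberg method over all of them, and the call threshold was an adjusted p of 0.05. The design text calls the experiments independent, but whether each used separate animals is not given in the sources used here, so the p-values measure only the spread between these samples.

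LPS given to unprimed macrophages changed all 8 genes. Tnfaip3, Traf1, Zc3h12a, Zfp36, Tnip1 and Cyld rose and Zfp36l1 and Zfp36l2 fell, each read from its brightest probe. The direction for Cyld depended on the probe, and the Zfp36l2 call on the background correction, as given below. Over all genes 42.4% were called in this comparison, 20.8% higher and 21.6% lower. The median change of the 8 was 3.18, against 0.05 over all genes. Within each of the 5 slides that held both groups, all 8 genes kept the direction of their change.

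Tnfaip3, the ubiquitin-editing enzyme A20, had a level of 1.00 to 1.49 in untreated arrays with a median of 1.17. With LPS its level was 6.74 to 7.41 with a median of 7.26. The groups were far apart, and array C was the lowest of the LPS group. The difference was 5.99 ± 0.17, a 63.7-fold rise (adjusted p = 4.93e-19).

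Tnip1, a ubiquitin-binding partner of A20, was at 3.06 to 3.88 in untreated arrays (median 3.25) and at 5.96 to 6.69 with LPS (median 6.55). All 7 LPS arrays lay above all 7 untreated ones, with a rise of 3.01 ± 0.15 or 8.07-fold (adjusted p = 1.64e-14). Traf1 was at 2.69 to 3.32 in untreated arrays (median 3.10) and at 6.62 to 7.36 with LPS (median 6.86). Its rise was 3.88 ± 0.14, or 14.7-fold (adjusted p = 5.75e-17).

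Because these genes rose together, the bases before their start sites were examined in RefSeq sequence of mouse build GRCm38.p6, which held promoters for 7 of the 8 members. The 250 bases before the start were searched on both strands for GGNNTTTCC and for the NF-κB consensus, which overlaps it, and for TTCNNNGAA (STAT-like), TGANTCA (AP-1-like) and TATAAA. Of 32851 promoters, 4.93% held GGNNTTTCC, 3.9% the NF-κB consensus, 7.02% the STAT-like motif, 6.75% the AP-1-like motif and 12.4% TATAAA. Shown are the 160 bases before the start for the 3 members with a match to GGNNTTTCC or the consensus, with those matches in capitals, and for Zfp36l1, which fell with LPS. All but Cyld lie on the minus strand and are written 5′ to 3′ on the gene's strand.
Tnfaip3 (chr10:19015411-19015570): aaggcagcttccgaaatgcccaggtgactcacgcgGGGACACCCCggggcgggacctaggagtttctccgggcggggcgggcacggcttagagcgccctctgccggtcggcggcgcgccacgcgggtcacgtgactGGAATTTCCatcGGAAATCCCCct
Tnip1 (chr11:54962941-54963100): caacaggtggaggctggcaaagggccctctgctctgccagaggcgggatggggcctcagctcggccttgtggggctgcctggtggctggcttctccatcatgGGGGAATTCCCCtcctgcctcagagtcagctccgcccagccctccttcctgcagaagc
Cyld (chr8:88696868-88697027, plus strand): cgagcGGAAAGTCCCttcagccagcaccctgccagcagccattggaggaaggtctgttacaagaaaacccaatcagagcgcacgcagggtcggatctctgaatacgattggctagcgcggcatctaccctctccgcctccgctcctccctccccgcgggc
Zfp36l1 (chr12:80113014-80113173): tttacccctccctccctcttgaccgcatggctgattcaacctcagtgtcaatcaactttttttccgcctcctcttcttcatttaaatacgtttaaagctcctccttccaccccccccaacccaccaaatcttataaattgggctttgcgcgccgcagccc

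In the Tnfaip3 window GGAATTTCC began at base -24 from the start and GGAAATCCC at base -12, the latter on the opposite strand. A second annotated start of Tnfaip3 had no match to any of the 5 motifs. The Tnip1 window held 3 overlapping matches to the consensus from base -58 to -56, and the Cyld window 1 match from base -155. Traf1, Zfp36 and Zc3h12a had no match to GGNNTTTCC or the consensus in their windows, and neither did Zfp36l1. STAT-like matches were found in the Zfp36 window at base -17 and the Tnip1 window at base -199. TATAAA was found in the Zfp36l1 window at base -29 and the Tnfaip3 window at base -225, and AP-1-like matches at base -129 of Zfp36l1 and base -136 of Tnfaip3. These matches describe the letters in the windows and show no binding.

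Cyld, the deubiquitinase that removes linear and K63-type ubiquitin chains, moved least. Its level was -0.51 to 0.01 in untreated arrays (median -0.27) and 0.03 to 0.53 with LPS (median 0.21), so the groups did not overlap but nearly touched. The rise was 0.47 ± 0.12, or 1.38-fold (adjusted p = 0.00216). The direction depended on the probe. A second Cyld probe fell with LPS by 1.11 on the log2 scale (SE 0.19, adjusted p = 3.02e-05), the dimmest probe gave 0.35 ± 0.22 (adjusted p = 0.222), and the mean over the probes gave -0.10 (adjusted p = 0.565).

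Among the regulators of messenger stability, Zfp36 and Zc3h12a rose while the 2 relatives of Zfp36 fell. Zfp36 was at 1.84 to 2.36 in untreated arrays (median 2.22) and at 5.38 to 5.69 with LPS (median 5.49). The rise was 3.34 ± 0.20, or 10.1-fold (adjusted p = 5.75e-13), with no overlap of the groups. Zc3h12a was at -2.89 to -1.30 in untreated arrays (median -2.18) and at 0.74 to 2.54 with LPS (median 1.94), a rise of 3.82 ± 0.25 or 14.2-fold (adjusted p = 3.05e-12). Its LPS arrays spread more than those of Zfp36, with an SD of 0.65 against 0.13.

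Zfp36l1 was at 2.98 to 4.26 in untreated arrays (median 3.75) and at 0.01 to 0.81 with LPS (median 0.30). Every LPS array lay more than 2 log2 units below every untreated one. The fall was -3.36 ± 0.26, a 10.3-fold lower level (adjusted p = 6.59e-11), and the second Zfp36l1 probe gave -3.40 ± 0.25. Zfp36l2 was at -2.48 to -1.61 in untreated arrays (median -2.03) and at -4.71 to -2.88 with LPS (median -4.02). Its change was -1.80 ± 0.29, a 3.47-fold lower level (adjusted p = 1.48e-05), at signals of 33 to 143 intensity units in the LPS group. With normexp background correction this change was -0.99 and no longer called (adjusted p = 0.0558).

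**Figure D1:**
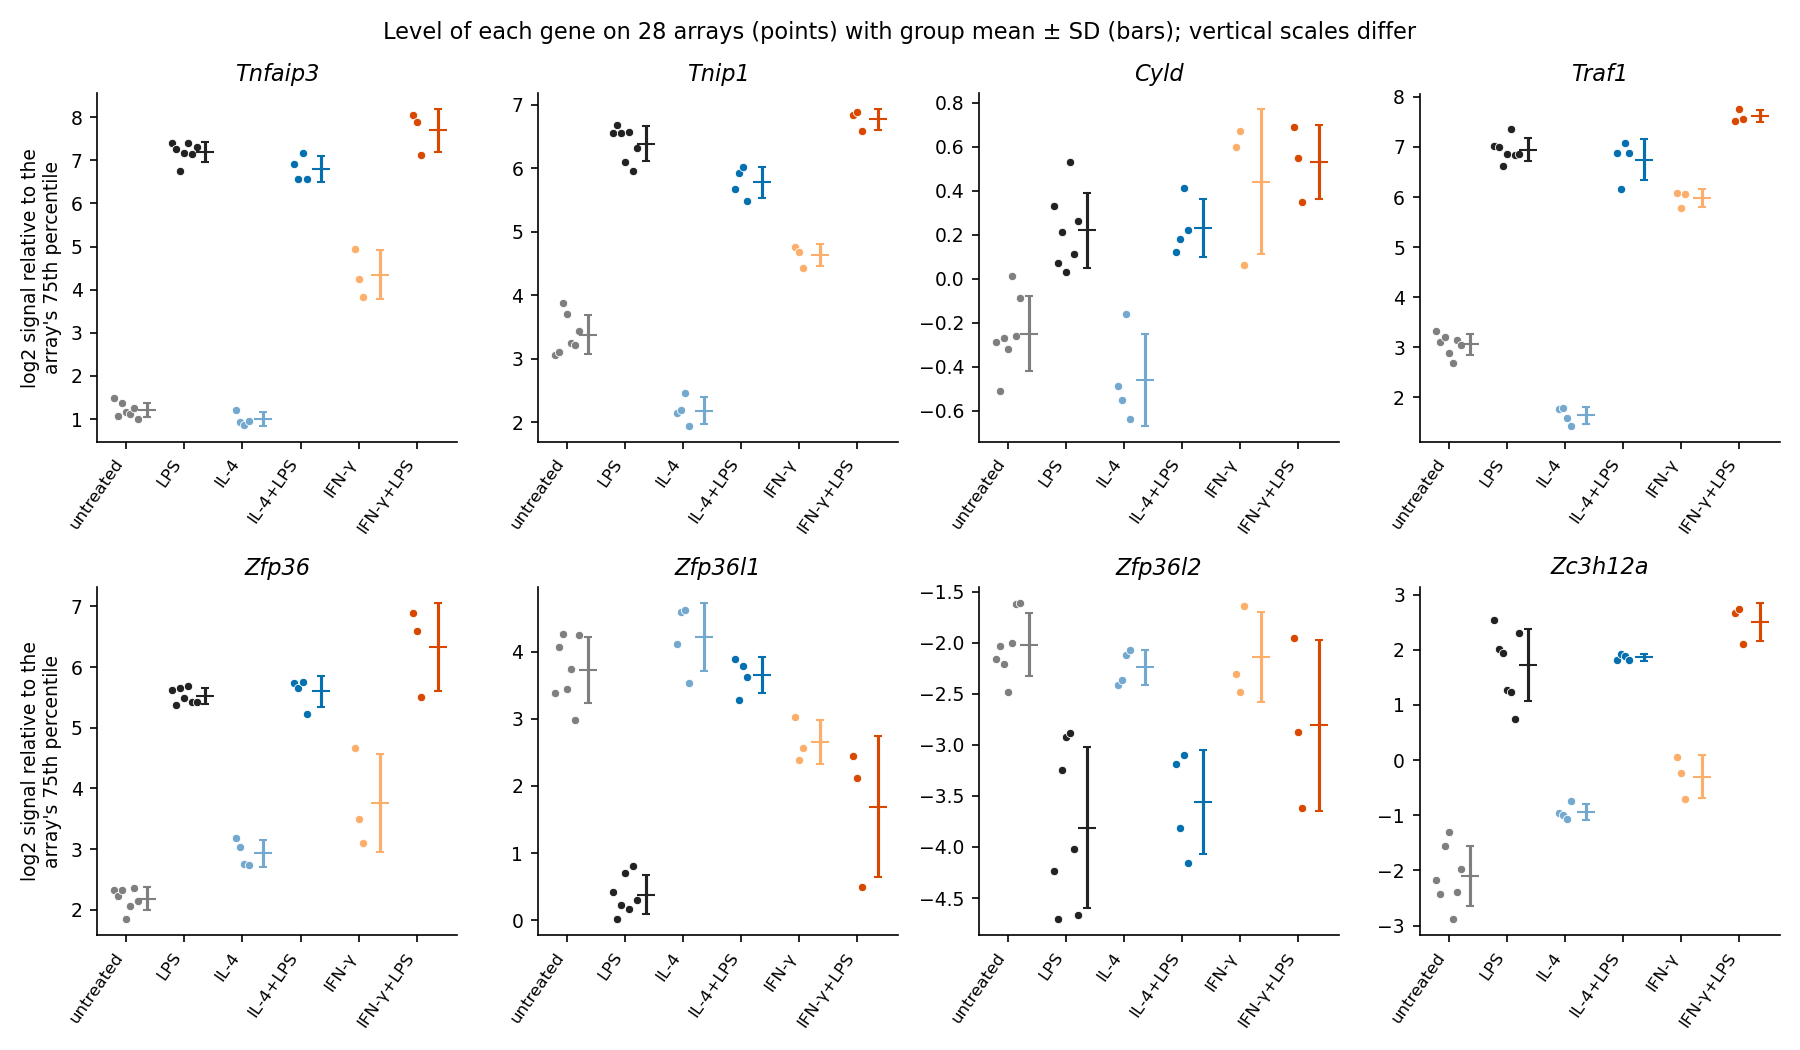
Level of each of the 8 genes on every array (points, log2 signal relative to the array's 75th percentile; vertical scales differ) with the mean ± SD of the 6 treatment groups. Zfp36l1 sits between 0.01 and 0.81 on the LPS arrays but between 3.28 and 3.90 on the IL-4 with LPS arrays, while the Tnfaip3 levels of all 3 groups with LPS lie above 6.

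IL-4 alone changed 4 of the 8 genes, lowering Tnip1 and Traf1 and raising Zc3h12a and Zfp36. Over all genes 11.3% were called, 5.78% higher and 5.53% lower. The 4 IL-4 arrays had Tnip1 levels of 2.14, 2.19, 2.46 and 1.94, all below the untreated arrays, a change of -1.20 ± 0.17 (2.29-fold lower, adjusted p = 1.83e-05). Their Traf1 levels were 1.77, 1.78, 1.58 and 1.43, again below every untreated array, with a change of -1.42 ± 0.16 (2.67-fold lower, adjusted p = 6.62e-07).

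The 2 regulators of messenger decay went the other way. Zc3h12a was at -0.96, -1.0, -1.06 and -0.74 with IL-4, above all untreated arrays, a rise of 1.16 ± 0.29 (2.24-fold, adjusted p = 0.00834). Zfp36 was at 3.18, 3.04, 2.75 and 2.73, also above all untreated arrays, a rise of 0.74 ± 0.23 (1.67-fold, adjusted p = 0.0391). This Zfp36 call was lost on leaving out any one of the 4 IL-4 arrays or untreated array B, D, E or G, with adjusted p of up to 0.134 without IL-4 array A. The second Zfp36 probe gave 0.45 ± 0.40 (adjusted p = 0.588) and the mean over the probes 0.60 (adjusted p = 0.227). Quantile normalization gave 0.71 for Zfp36 (adjusted p = 0.0601). With normexp correction both calls were lost (0.87 with adjusted p = 0.252 for Zc3h12a and 0.59 with adjusted p = 0.858 for Zfp36).

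Tnfaip3, Cyld, Zfp36l1 and Zfp36l2 were not called with IL-4 alone. Their differences were -0.21 ± 0.19, -0.22 ± 0.14, 0.48 ± 0.30 and -0.23 ± 0.35. Tnfaip3 was at 1.22, 0.93, 0.87 and 0.96 on the IL-4 arrays, Cyld at -0.49, -0.55, -0.16 and -0.64, and Zfp36l2 at -2.41, -2.37, -2.12 and -2.07. For each of the 4 genes the IL-4 and untreated arrays overlapped.

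IFN-γ alone changed 7 of the 8 genes, where 25.9% of all genes were called (12.7% higher, 13.2% lower). Tnfaip3, Traf1, Zc3h12a, Zfp36, Tnip1 and Cyld rose and Zfp36l1 fell. This comparison shares its untreated arrays with that of LPS. The median change over all genes was -0.29 here and 0.16 when arrays were scaled on their median, so changes stand against that shift, and 49% of the calls were higher, or 77.8% with median scaling. The median of the 8 members was 1.41.

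Tnfaip3 was at 4.95, 4.25 and 3.84 on the IFN-γ arrays, above every untreated and below every LPS array, a rise of 3.14 ± 0.21 or 8.81-fold (adjusted p = 5.12e-11). Traf1 was at 6.08, 5.78 and 6.07, a rise of 2.92 ± 0.18 or 7.56-fold (adjusted p = 8.91e-12). Tnip1 was at 4.76, 4.68 and 4.43, a rise of 1.24 ± 0.19 or 2.37-fold (adjusted p = 1.93e-05). For these signalling inhibitors the IFN-γ arrays formed a step between untreated and LPS arrays. Cyld was at 0.60, 0.67 and 0.06, with 1 array close to the untreated range, and its rise was 0.69 ± 0.15 (adjusted p = 0.00145). The other Cyld probes gave 0.14 ± 0.25 (adjusted p = 0.703) and 0.28 ± 0.28 (adjusted p = 0.48).

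Zfp36 was at 4.66, 3.50 and 3.10 with IFN-γ, a rise of 1.57 ± 0.26 or 2.97-fold (adjusted p = 4.83e-05), and the 3 arrays spread widely (SD 0.81). Zc3h12a was at 0.06, -0.24 and -0.71, a rise of 1.81 ± 0.32 or 3.50-fold (adjusted p = 0.000134). Both genes lay above every untreated array. Zfp36l1 was at 3.03, 2.38 and 2.57, and its range touched that of the untreated group. Its change of -1.08 ± 0.34 (2.11-fold lower, adjusted p = 0.0191) was not called without IFN-γ array F (-0.94, adjusted p = 0.0994) or G (-1.03, adjusted p = 0.062), nor with median scaling (-0.63, adjusted p = 0.17). With experiments E, F and G alone it was -1.0 (adjusted p = 0.135), and Cyld (0.55, adjusted p = 0.215) and Zfp36 (1.56, adjusted p = 0.0611) were not called either. Zfp36l2, at -2.31, -2.48 and -1.64, lay within the untreated range and did not pass the test (-0.13 ± 0.38).

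**Figure D2:**
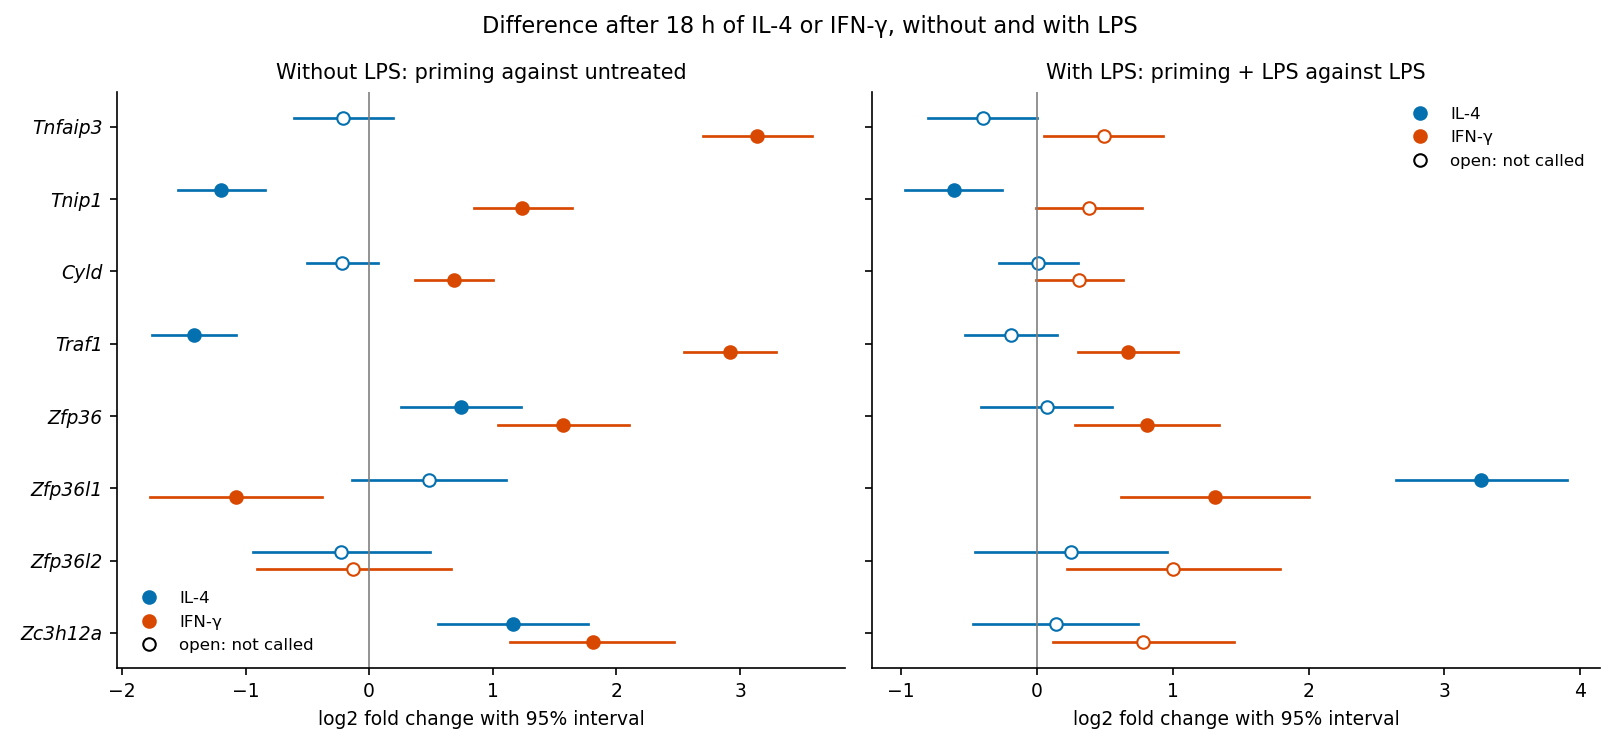
Differences after 18 h of IL-4 (blue) or IFN-γ (orange), against untreated cells (left) and, with LPS in both groups, against LPS alone (right); points are log2 fold changes, lines 95% intervals, and open points did not pass the test. Without LPS, Traf1 was lower with IL-4 (-1.42) and higher with IFN-γ (2.92), and with LPS the largest shift was that of Zfp36l1 after IL-4 (3.27).

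Set directly against each other without LPS, IL-4 and IFN-γ differed in 6 of the 8 genes, where 27.9% of all genes were called, 14.8% higher and 13% lower. Traf1 was 20.2-fold lower with IL-4 than with IFN-γ (-4.34 ± 0.20, adjusted p = 2.36e-14), Tnfaip3 10.2-fold lower (-3.35 ± 0.24) and Tnip1 5.44-fold lower (-2.44 ± 0.21). Zfp36l1 was the 1 gene that was higher with IL-4, by 1.56 ± 0.37 or 2.95-fold (adjusted p = 0.00225). Cyld was lower by 0.90 on the log2 scale, but its other probes gave -0.28 (adjusted p = 0.453) and -0.23 (adjusted p = 0.601). Zfp36 was lower by 0.83, with adjusted p = 0.0312 and lost without IFN-γ array E (-0.38, adjusted p = 0.336) or IL-4 array C or G. No difference was called in Zc3h12a (-0.64 ± 0.36), although its arrays did not overlap, or in Zfp36l2 (-0.10 ± 0.42). No slide held arrays of both cytokines, and only 1 scan day did, so the cytokines could not be compared within slides.

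In IL-4-primed cells LPS changed 7 of the 8 genes, where 31.3% of all genes were called, 15% higher and 16.3% lower. The exception was Zfp36l1. Its levels were 4.12, 4.59, 4.63 and 3.53 with IL-4 alone and 3.90, 3.28, 3.79 and 3.62 with IL-4 and LPS. The ranges overlapped and the change of -0.57 ± 0.34 (95% interval up to 0.14) did not pass the test (adjusted p = 0.242), although with quantile normalization it was -1.05 and called (adjusted p = 0.0223). Within the 4 slides that held both groups the change ran from -0.85 to 0.08.

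The other 7 genes, each read from its brightest probe, moved in the direction seen in unprimed cells. With IL-4 and LPS, Tnfaip3 was at 6.92, 6.57, 7.17 and 6.56, a rise of 5.81 ± 0.22 or 56-fold over IL-4 alone (adjusted p = 4.02e-16). Traf1 was at 6.88, 6.15, 7.07 and 6.87, a rise of 5.11 ± 0.18 or 34.5-fold (adjusted p = 1.69e-16). Tnip1 was at 5.68, 5.93, 6.02 and 5.49, a rise of 3.60 ± 0.19 or 12.1-fold (adjusted p = 2.33e-13). These 3 inhibitors of signalling thus rose from levels at or below the untreated ones to the range of LPS alone or just under it.

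Zfp36 was at 5.74, 5.66, 5.75 and 5.23 with both agents, a rise of 2.67 ± 0.26 (6.37-fold, adjusted p = 1.17e-08). Zc3h12a was at 1.81, 1.93, 1.89 and 1.81, close together (SD 0.06), and rose by 2.80 ± 0.33 (6.95-fold, adjusted p = 2.23e-07). Zfp36l2 was at -3.19, -3.81, -3.10 and -4.16, below every array with IL-4 alone, a change of -1.32 ± 0.39 (adjusted p = 0.00994) that was lost with normexp correction (-0.70, adjusted p = 0.548). Cyld was at 0.12, 0.18, 0.41 and 0.22, above every array with IL-4 alone. It was higher by 0.69 ± 0.16 (adjusted p = 0.00108), a call lost with median scaling (0.56, adjusted p = 0.124), while its second probe gave -0.65 ± 0.25 (adjusted p = 0.0553).

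In IFN-γ-primed cells LPS changed 5 of the 8 genes, all upward, where 12% of all genes were called, 5.68% higher and 6.31% lower. With IFN-γ and LPS, Tnfaip3 was at 8.06, 7.88 and 7.13, a rise of 3.34 ± 0.25 or 10.1-fold over IFN-γ alone (adjusted p = 2.75e-09). Tnip1 was at 6.84, 6.89 and 6.59, a rise of 2.15 ± 0.23 or 4.43-fold. Traf1 was at 7.52, 7.75 and 7.55, a rise of 1.63 ± 0.21 or 3.10-fold. Each started from a level that IFN-γ had already raised.

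Zfp36 was at 6.89, 6.60 and 5.51 with IFN-γ and LPS, a rise of 2.58 ± 0.31 or 5.97-fold. Zc3h12a was at 2.67, 2.74 and 2.10, a rise of 2.80 ± 0.38 or 6.96-fold. Array G was the lowest of the 3 for both. The 3 genes without a call were Cyld (0.69, 0.55 and 0.35 with both agents, a difference of 0.09 ± 0.18), Zfp36l2 (-0.67 ± 0.45) and Zfp36l1 (-0.97 ± 0.40, adjusted p = 0.125). Zfp36l1 was at 2.44 and 2.12 on arrays E and F but at 0.49 on array G, which lay inside the range of LPS alone. Array G of IFN-γ with LPS was the dimmest array of all (75th percentile 582). It was on another slide and scan day than E and F, and the part of this was not tested. Without array G of IFN-γ with LPS the Zfp36l1 change was -0.37, and without array E -1.35 (adjusted p = 0.0482). With the slide as a block the change of -0.97 was called (adjusted p = 0.0138).

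**Figure D3:**
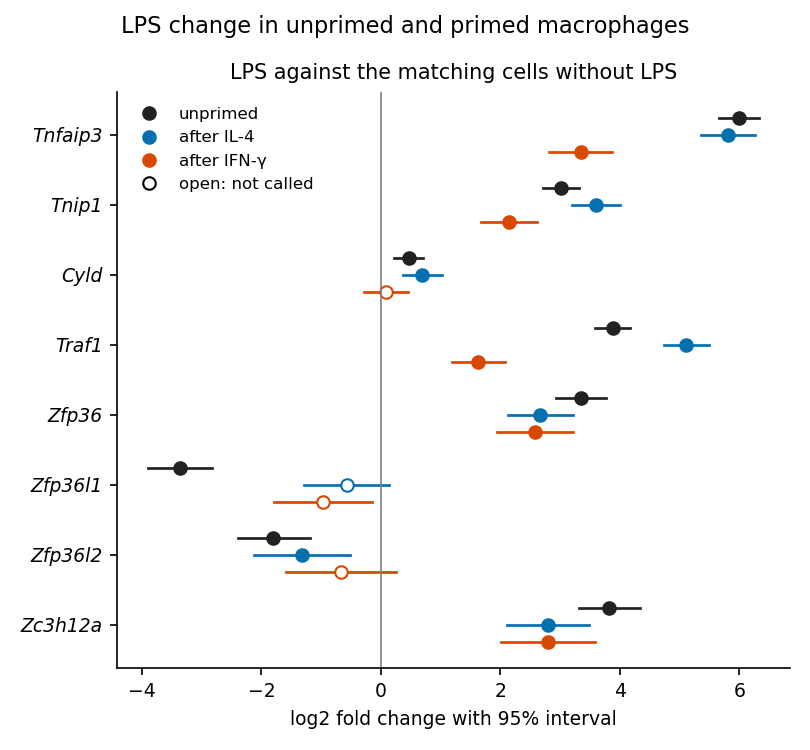
LPS change of each gene in unprimed (black), IL-4-primed (blue) and IFN-γ-primed (orange) macrophages, as log2 fold changes with 95% intervals; open points did not pass the test. The change of Zfp36l1 was -3.36 in unprimed cells, -0.57 after IL-4 and -0.97 after IFN-γ, and the rise of Tnfaip3 was 3.34 after IFN-γ against 5.99 in unprimed cells.

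Whether priming altered the response to LPS was tested directly, by subtracting the LPS change of unprimed cells from that of primed cells. After IL-4 it differed for 2 genes, Zfp36l1 and Traf1, where 1.59% of all genes were called, 0.909% higher and 0.686% lower. For Zfp36l1 the difference was 2.79 ± 0.43 (adjusted p = 0.000481), against a fall of -3.36 in unprimed cells. It ran from 2.56 to 2.92 when single arrays were left out and from 2.59 to 3.18 under the other settings, called throughout, and the second probe gave 2.80 ± 0.41. For Traf1 the difference was 1.23 ± 0.23 (adjusted p = 0.00357), a larger rise from a lower start, but it was not called with median scaling (1.04, adjusted p = 0.427) or normexp correction (1.20, adjusted p = 0.453).

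For the remaining genes the IL-4 interaction did not pass the test. It was -0.67 ± 0.33 for Zfp36 (95% interval up to 0.01) and -1.03 ± 0.41 for Zc3h12a (up to -0.17, adjusted p = 0.403), the 2 genes called higher with IL-4 alone. That earlier difference, whose calls depended on the processing, enters the interactions of these 2 genes with its sign turned. With the slide as a block both were called, at -0.73 (adjusted p = 0.0316) and -1.04 (adjusted p = 0.00296). The Tnfaip3 interaction was -0.19 ± 0.27.

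After IFN-γ the LPS change differed for 4 genes, where 8.33% of all genes were called, 3.04% higher and 5.29% lower. The rise was smaller by 2.65 ± 0.30 for Tnfaip3 (log2, adjusted p = 2.9e-06) and by 2.25 ± 0.25 for Traf1 (adjusted p = 2.52e-06). IFN-γ alone had raised Tnfaip3, Traf1 and Tnip1 (3.14, 2.92 and 1.24), and those rises enter their interactions with the sign turned. Against LPS alone, the difference with IFN-γ and LPS was 0.49 ± 0.21 for Tnfaip3 (adjusted p = 0.109) and 0.67 ± 0.18 for Traf1 (adjusted p = 0.00737). For Tnip1 the difference was -0.86 ± 0.27 with adjusted p = 0.0463, and leaving out any one of 18 of the 28 arrays lost the call (adjusted p up to 0.12, without IFN-γ array E). For Zfp36l1 it was 2.39 ± 0.47 (adjusted p = 0.00159), and it stayed between 2.01 and 2.98 when single arrays were left out. It was 2.26 with adjusted p = 0.131 when only experiments E, F and G were used. Interactions of -1.02 ± 0.46 for Zc3h12a and -0.76 ± 0.36 for Zfp36 did not pass, but were called with the slide as a block (adjusted p = 0.0017 and 0.0093).

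The LPS change after IL-4 was larger than that after IFN-γ for Traf1 by 3.47 ± 0.28 (11.1-fold, adjusted p = 7.02e-09), for Tnfaip3 by 2.47 ± 0.33 (5.53-fold, adjusted p = 1.82e-05) and for Tnip1 by 1.45 ± 0.30 (2.73-fold, adjusted p = 0.00255). Over all genes 5.44% were called, 3.58% higher and 1.86% lower. The Tnip1 call was lost with median scaling (1.44, adjusted p = 0.097). The 3 signalling inhibitors with these calls were the 3 that differed most between the cytokines before LPS. That difference enters the comparison of LPS changes with its sign turned, from the same arrays, so the match is partly arithmetic. For Zfp36 (0.09 ± 0.40), Zc3h12a (0.00 ± 0.51) and Zfp36l1 (0.40 ± 0.53) no difference was called.

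With LPS present, the groups were also compared by priming. IL-4 with LPS against LPS alone gave 2 calls, where 8.97% of all genes were called, 4.37% higher and 4.6% lower. Zfp36l1 was 9.65-fold higher with IL-4 (3.27 ± 0.30, adjusted p = 5.32e-08), with the lowest IL-4 with LPS array at 3.28 and the highest LPS array at 0.81. Within the 4 slides holding both groups the difference was 3.06 to 3.63. Tnip1 was lower by 0.61 on the log2 scale (SE 0.17, adjusted p = 0.024) with overlapping ranges, and this call was lost without IL-4 with LPS array A (-0.58, adjusted p = 0.078) or G (-0.52, adjusted p = 0.108). The other 6 differences lay between -0.40 and 0.25.

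IFN-γ with LPS against LPS alone gave 3 calls, all higher, where 22.8% of all genes were called, 10.7% higher and 12.1% lower. They were Traf1 (0.67 ± 0.18, adjusted p = 0.00737), Zfp36 (0.81 ± 0.26, adjusted p = 0.0242) and Zfp36l1 (1.31 ± 0.34, adjusted p = 0.00539). The count rested on single arrays. Without IFN-γ with LPS array F no member was called, without E 1 was called, and without G 5 were. Leaving out an array changes the calls of all genes too, and their share in these fits is not given here. With normexp correction Traf1 (0.42, adjusted p = 0.572) and Zfp36 (0.59, adjusted p = 0.596) lost their calls, and with experiments E, F and G alone all 3 genes did (adjusted p from 0.196 to 0.255). Zfp36l2 was at -1.95, -2.87 and -3.62 against -4.71 to -2.88 with LPS alone, a difference of 1.00 ± 0.38 (adjusted p = 0.0594). With the slide as a block it was 1.52 (adjusted p = 0.00953). Within the 2 slides that held both groups it was 1.81 to 2.29, but these held only arrays E and F of IFN-γ with LPS. Within scan days the difference was 1.10 to 2.05. The LPS arrays had signals of only 33 to 143 intensity units for this gene.

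Between the 2 primed groups with LPS 4 genes differed, where 25.6% of all genes were called, 13.9% higher and 11.7% lower. Zfp36l1 was 3.89-fold higher with IL-4 than with IFN-γ (1.96 ± 0.37, adjusted p = 0.000296). Tnip1, Tnfaip3 and Traf1 were lower by 0.99, 0.89 and 0.86 on the log2 scale. The Tnfaip3 call was lost without IFN-γ with LPS array E (-0.70, adjusted p = 0.0655). With normexp correction the calls of all 3 were lost, at -0.72, -0.62 and -0.59 (adjusted p = 0.172, 0.39 and 0.328), and with only these 2 groups in the fit Tnfaip3 and Traf1 lost theirs. Zfp36 (-0.74 ± 0.29, adjusted p = 0.0606) was called with the slide as a block (-1.16, adjusted p = 0.000486), with median scaling (-1.11), without IFN-γ with LPS array G (-1.15) and by its second probe (-1.86, adjusted p = 0.00534). Zfp36l2 (-0.76 ± 0.42) was called with the slide (-1.51) or scan day (-1.29) as a block, with quantile normalization (-1.10) and with median scaling (-1.13). No slide held arrays of both groups, and only 1 scan day did. The fit with the slide as a block thus compares them only through untreated and LPS arrays.

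The order of the 6 groups differed between the genes. Tnfaip3, Tnip1 and Traf1 ran from IL-4 through untreated and IFN-γ to IL-4 with LPS, LPS and IFN-γ with LPS. Neighbouring ranges overlapped between IL-4 and untreated for Tnfaip3, and among the groups with LPS except between LPS and IFN-γ with LPS for Traf1. Zfp36 and Zc3h12a had untreated lowest and then IL-4, IFN-γ, LPS, IL-4 with LPS and IFN-γ with LPS. Their levels in LPS and IL-4 with LPS overlapped, as did those of Zfp36 in IL-4 and IFN-γ and in IL-4 with LPS and IFN-γ with LPS. Zfp36l1 ran the other way, from LPS through IFN-γ with LPS and IFN-γ to IL-4 with LPS, untreated and IL-4, with a gap only between IFN-γ and IL-4 with LPS. Cyld ran from IL-4 through untreated, LPS, IL-4 with LPS and IFN-γ to IFN-γ with LPS, with a gap only between untreated and LPS. Zfp36l2 ran from LPS through IL-4 with LPS, IFN-γ with LPS, IL-4 and IFN-γ to untreated, and all its neighbouring ranges overlapped. The group means spanned 6.69 log2 units for Tnfaip3, 5.97 for Traf1, 4.60 for Zc3h12a, 4.59 for Tnip1, 4.15 for Zfp36, 3.84 for Zfp36l1, 1.79 for Zfp36l2 and 0.99 for Cyld.

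Zfp36 and Zc3h12a were the most alike pair of members, with a root mean square difference of 0.19 over the 6 centred group means, and the next pair, Tnip1 and Zfp36, was at 0.63. Among the 18331 other genes compared, the closest to Tnfaip3 were Gem (0.42), a small GTPase, Cd40 (0.47), a TNF receptor family member, and Cd200 (0.48), against a median of 2.79 over all genes. Peli1 (0.27), a ubiquitin ligase, was the closest to Tnip1 after the transcripts AK037569 (0.23) and AK046811 (0.25). Closest to Traf1 were Lpar1 (0.25), the guanylate-binding protein gene Gbp7 (0.32) and Slamf7 (0.33). Zfp36 was most like Rffl (0.19), St3gal1 (0.24) and 5230400M03Rik (0.25), and Zc3h12a most like Tiparp (0.27), Rffl (0.30) and Gadd45b (0.33). Zfp36l1 had no gene closer than 6720470G18Rik (0.40), Il6st (0.53), the shared receptor subunit of the IL-6 family, and Eepd1 (0.54). For Cyld (Zfyve16, Cndp2 and Mcts2) and Zfp36l2 (Atg2b, Tk2 and Rev3l) the nearest genes were within 0.09, values that small spans make easy to reach, since the medians over all genes were 0.64 and 0.90.

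**Figure D4:**
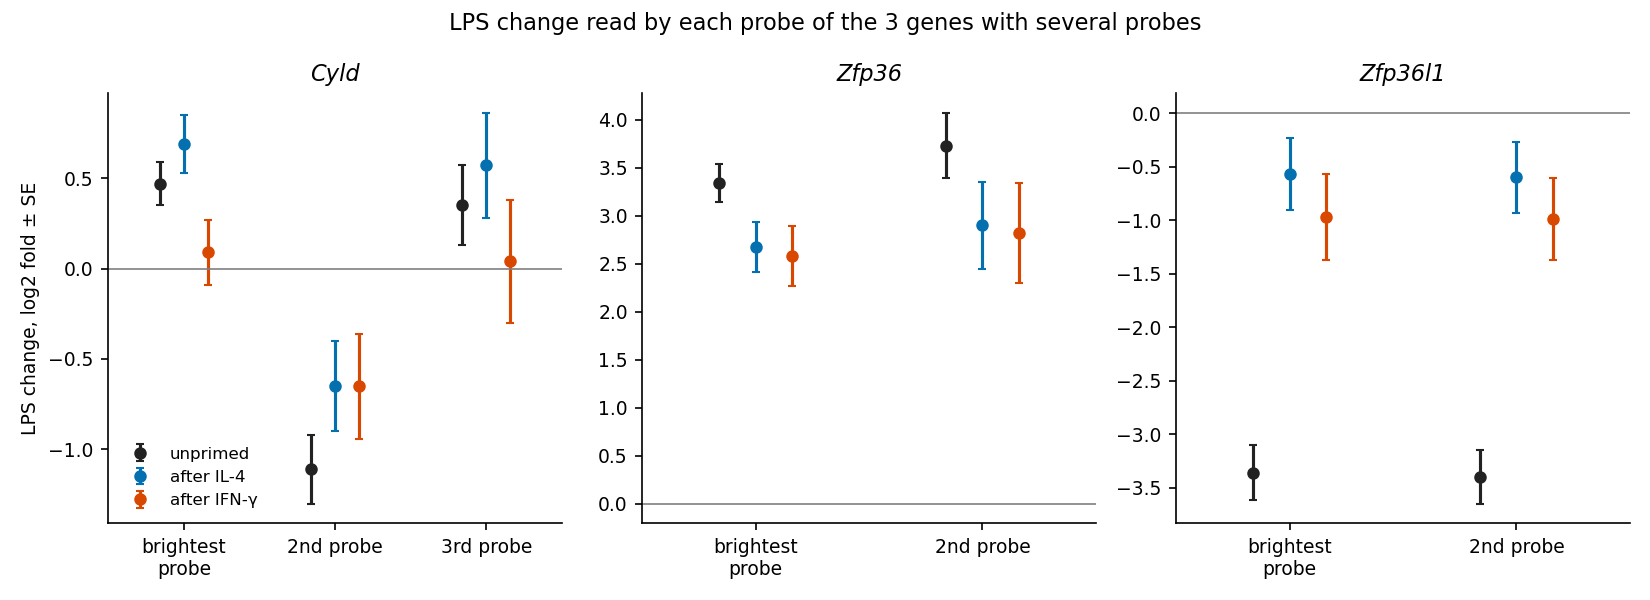
LPS change (log2 fold ± SE) read by each probe of Cyld, Zfp36 and Zfp36l1, ordered by brightness, in unprimed (black), IL-4-primed (blue) and IFN-γ-primed (orange) cells. The 2 Zfp36l1 probes give -3.36 and -3.40 in unprimed cells, while the Cyld probes give 0.47, -1.11 and 0.35.

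Of 24 genes listed as other brakes of NF-κB or related signalling, 16 rose and 3 fell with LPS in unprimed cells. Their median change was 2.08 against 0.05 over all genes, with 79.2% called against 42.4% of all genes. The largest changes were those of Socs3 (8.58 ± 0.25) and Socs1 (5.65 ± 0.19), inhibitors of JAK-STAT signalling, the IL-1 receptor antagonist Il1rn (6.04 ± 0.29) and Tnip3 (5.22 ± 0.24), a relative of Tnip1. Nfkbid (0.07 ± 0.21) and Tollip (-0.07 ± 0.11) were not called. With IL-4 alone 3 rose and 7 fell, 41.7% called against 11.3% of all genes. Socs1 rose by 5.07 ± 0.22 and Cd200r1 by 1.45 ± 0.25, while Nfkbiz, an atypical IκB protein, changed by -3.40 ± 0.33. With IFN-γ alone 15 rose (62.5% against 12.7% of all genes called higher, median 1.00 against -0.29), led by Socs1 (5.93 ± 0.24) and Socs3 (4.92 ± 0.33). After IFN-γ the LPS change was smaller for 10 of the 24 (41.7% against 5.29% of all genes called lower), led by Socs1 (-5.13 ± 0.34) and Socs3 (-4.57 ± 0.46). After IL-4 the LPS change differed for 4 (16.7% against 1.59% of all genes), smaller for Socs1 (-4.51 ± 0.31) and larger for Nfkbiz (2.75 ± 0.46), Nfkbie (1.34 ± 0.24) and Usp18 (1.07 ± 0.17). The changes with the cytokine alone, given above for Socs1, Socs3 and Nfkbiz, enter these differences with their sign turned.

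Of 30 signalling proteins on which the inhibitors act, such as adaptors, kinases and ubiquitin ligases, 21 rose and 6 fell with LPS in unprimed cells (median 0.76), 90% called against 42.4% of all genes. Malt1, a paracaspase that cleaves A20 (4.70 ± 0.18), the kinase Ripk2 (4.61 ± 0.30), the ubiquitin ligase Birc3 (3.05 ± 0.19) and the kinase Irak2 (2.88 ± 0.16) changed most. The linear ubiquitin ligase subunits Rbck1 and Sharpin, both at 0.17, were not called. IL-4 alone raised 2, Traf5 (1.78 ± 0.16) and Ripk2 (1.15 ± 0.35), and lowered 4, among them Ikbke (-1.37 ± 0.20), 20% called against 11.3% of all genes. IFN-γ alone raised 15 and lowered 1, 53.3% against 25.9%. Traf3, an adaptor that restrains alternative NF-κB signalling, was higher than in LPS alone with IFN-γ and LPS (2.44 ± 0.27) and with IL-4 and LPS (0.97 ± 0.25).

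Of 38 other genes of messenger decay, 15 rose and 9 fell with LPS (median 0.09 against 0.05 over all genes), 63.2% called against 42.4% of all genes. Arid5a, which protects messengers from Regnase-1 (4.47 ± 0.30), Zc3h12c, a relative of Zc3h12a (3.41 ± 0.17), the decapping enzyme Dcp2 (2.24 ± 0.13) and the antiviral Zc3hav1 (2.05 ± 0.14) led. IL-4 alone changed 1, Zc3h12d (-1.36 ± 0.31), which is 2.63% against 11.3% of all genes. IFN-γ alone raised 7 and lowered 3, and these 26.3% are near the 25.9% of all genes. Btg1, a cofactor of deadenylation, was the 1 gene of the list with an IL-4 interaction (1.88 ± 0.28, adjusted p = 0.000304), where 1.59% of all genes had one. It was higher than in LPS alone with IL-4 and LPS (1.96 ± 0.20) and with IFN-γ and LPS (2.09 ± 0.22).

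Of 22 transcripts known as targets of the Zfp36 family or Regnase-1, 18 rose and 1 fell with LPS in unprimed cells (median 4.04), 19 rose and 1 fell with LPS after IL-4 (median 4.10), and 17 rose with LPS after IFN-γ (median 3.52). These are 86.4%, 90.9% and 77.3% called, against 42.4%, 31.3% and 12% of all genes. Il1b rose by 9.77 ± 0.45 in unprimed cells. Nfkbid (0.07 ± 0.21) and Myc (0.20 ± 0.44) were not called. IL-4 alone raised 2 and lowered 10 (median -1.07 against 0.01 over all genes, 54.5% called against 11.3%). Among the largest changes, Cxcl1 (-4.23 ± 0.51), Cxcl2 (-4.05 ± 0.45) and Nfkbiz (-3.40 ± 0.33) were lower and Ier3 was higher by 4.07 ± 0.35. In cells with LPS, IL-4 priming gave 3 higher and 4 lower calls (31.8% against 8.97% of all genes), with Tnf at 0.05 ± 0.36 and Cxcl2 at 0.06 ± 0.45 not called. Lcn2 (-1.88 ± 0.50) and Il12b (-1.76 ± 0.49) were lower and Ier3 higher (2.39 ± 0.35). Nfkbiz, Nfkbid and Dusp1 stand both in this list and in that of other brakes.

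**Figure D5:**
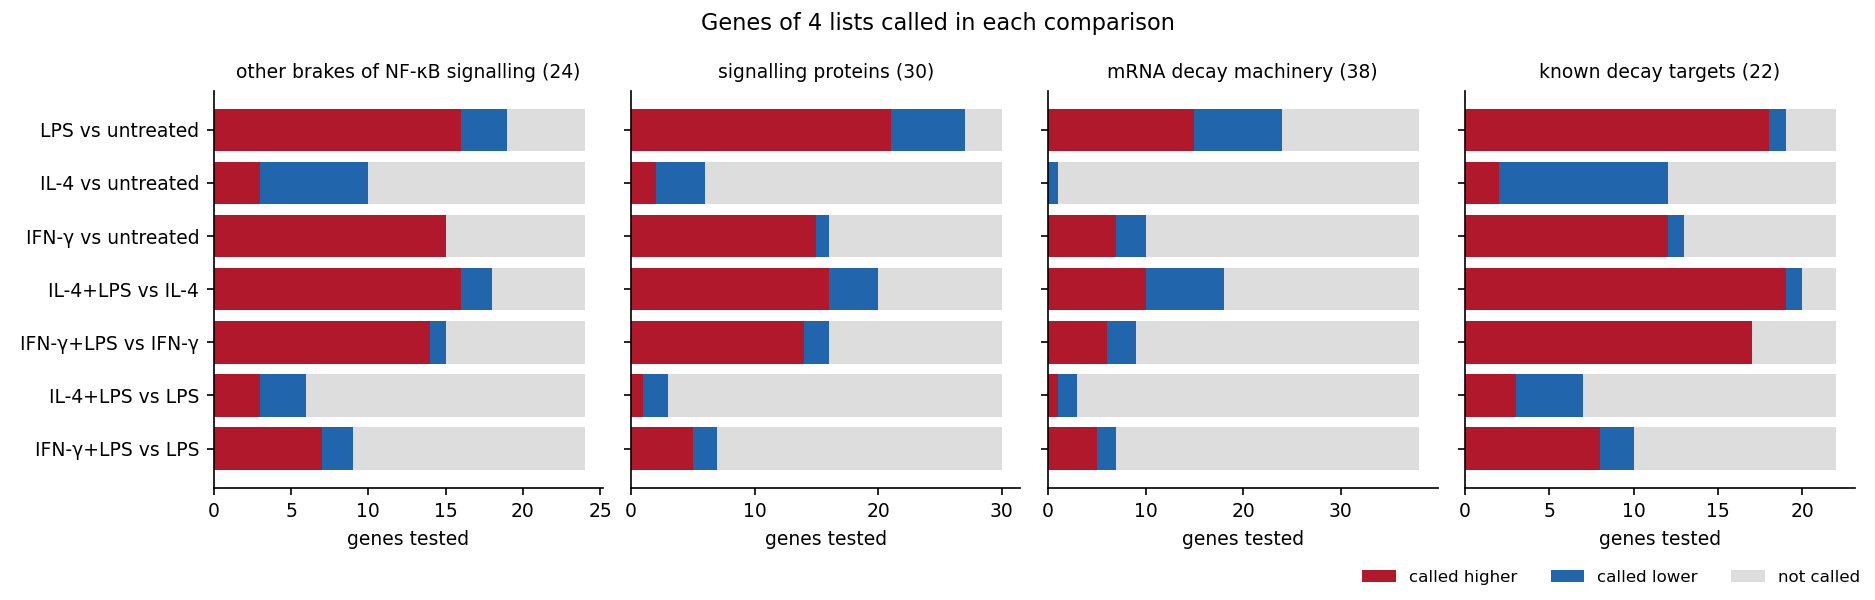
Number of tested genes called higher (red), called lower (blue) or not called (grey) at adjusted p under 0.05 in 7 comparisons, for 4 gene lists given with their number of tested genes. With IL-4 alone 10 of 22 known decay targets were lower and 2 higher, while 18 of 22 were higher with LPS alone.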

How the data were processed

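RNA was labelled with Cy3 and hybridised to single-colour arrays. The deposited scanner files hold fluorescence intensities from Agilent Feature Extraction 9.5.1, per the file headers, with no scaling from array to array. A table of log2 values was deposited too, which the values show to be differences from the median of the columns named untreated; its scaling is not known and it entered no test. Processed signals were put on a log2 scale relative to each array's 75th percentile, spots called outliers (at most 414 an array) were left out and spots of a probe averaged. Probes were named through RefSeq accessions or symbols, else by the array's own name. A gene was tested if well above background on at least 3 arrays. limma 3.58.1 (R 4.3.3, the data.table package, version 1.17.8; figures with Python 3.11.15, matplotlib 3.10.9) fitted all 28 arrays. On simulated data with known changes the model missed many of the smaller ones, so a gene without a call may still have changed. Arrays of 1 experiment letter, after removal of group means, had correlations of 0.154 to 0.726 for IL-4 with and without LPS. For IFN-γ with and without LPS they were 0.276 to 0.636. Arrays of 1 letter were thus alike there, which comes from the data, not the labels. They also shared a slide, or for IL-4 letters A and B a scan day, so letter and batch cannot be told apart. Members, lists and the rule for named genes were chosen with earlier results of these data known. Named were the 8 members, their 3 most alike genes and, per list and comparison described, up to 4 called genes with the largest change and up to 2 far from passing; some of these are not given. The number of arrays, 3 to 7 a group, limits the precision.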

Additional observations from a re-analysis of the deposited data

Results flagged for a closer look

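In the LPS group the Tnfaip3 level of array C was 6.74, with the next lowest array at 7.14, a gap of 0.601 of the group's range. It was the only such array among 32 combinations of gene and group examined, and chance sets apart about 1 in 20.

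The LPS change differed between primed and unprimed cells, or between the 2 kinds of priming, in 9 cases, by the tests given above. After IL-4 against unprimed cells the difference was 1.23 for Traf1 and 2.79 for Zfp36l1. After IFN-γ against unprimed cells it was -2.65 for Tnfaip3, -0.86 for Tnip1, -2.25 for Traf1 and 2.39 for Zfp36l1. After IL-4 against after IFN-γ it was 2.47 for Tnfaip3, 1.45 for Tnip1 and 3.47 for Traf1.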

How the results depend on the processing

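Over the alternatives other than left-out arrays, 995 of the member values kept their side of the threshold. A change of sign where neither fit made a call was counted among these. Of the others, 54 lost a call, 28 gained one and 3 with a call in at least 1 fit reversed in sign. The reversed values were those of Cyld, with its second probe (-1.11 for LPS in unprimed cells and -0.65 for LPS after IL-4) and with the mean over probes (-0.10 for LPS in unprimed cells). Leaving out 1 array lost 39 and gained 11. The number of members called with LPS in unprimed cells was 8 whichever array was left out. For the other comparisons it ran from 3 to 4 for IL-4 alone, 6 to 7 for IFN-γ alone, 7 to 7 for LPS after IL-4, 5 to 6 for LPS after IFN-γ, 1 to 2 for IL-4 with LPS against LPS and 0 to 5 for IFN-γ with LPS against LPS. It was 2 throughout for the IL-4 interaction, 3 to 4 for the IFN-γ interaction, 5 to 6 for IL-4 against IFN-γ, 3 to 5 for these 2 with LPS and 3 to 4 for the difference of their LPS changes. The share of all genes called without each array is not given here.

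With the slide as a block, 6 members were called for IFN-γ with LPS against LPS and 4 for the IL-4 interaction. The scan day as a block gave 5 for the former. With only experiments present in all groups compared, calls were 4 for IFN-γ alone, 1 for IL-4 with LPS against LPS, 0 for IFN-γ with LPS against LPS and 2 for the IFN-γ interaction, and with only the groups compared 1 for IL-4 with LPS against LPS and 2 for IL-4 with LPS against IFN-γ with LPS. With normexp correction they were 2 for IL-4 alone and 1 each for IL-4 with LPS against LPS, IFN-γ with LPS against LPS, the IL-4 interaction and IL-4 with LPS against IFN-γ with LPS. Median scaling gave 1 for IL-4 with LPS against LPS and 1 for the IL-4 interaction. The number of calls over all genes changed with the setting too, as given further below. These counts thus show no change that is particular to the members. Fewer arrays entered the fits limited to some experiments or groups. Otherwise the cause was not tested.

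The experiment letter as a block changed no member call for LPS after IL-4 or after IFN-γ, where arrays of 1 letter were alike. Between other groups, arrays of 1 letter had correlations from -0.527 to 0.587, and whether letters pair arrays there is not settled. With the letter as a block 3 members were called for IL-4 alone (Zc3h12a 1.04, adjusted p = 0.0513). There were 6 for IFN-γ alone (Zfp36l1 -1.03, adjusted p = 0.062) and 5 for IL-4 against IFN-γ (Zfp36 -0.76, adjusted p = 0.0519).

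Calls over all genes ran from 5559 (normexp) to 12940 (slide block) for LPS in unprimed cells against 9516, from 740 to 3935 for IL-4 alone against 2540, from 2680 to 7448 for IFN-γ alone against 5805 and from 40 to 1065 for the IL-4 interaction against 358. They ran from 632 to 4167 against 1870 for the IFN-γ interaction, 3579 to 11596 against 7019 for LPS after IL-4, 765 to 6974 against 2692 for LPS after IFN-γ, 457 to 3833 against 2015 for IL-4 with LPS against LPS, 1652 to 7593 against 5118 for IFN-γ with LPS against LPS, 3066 to 7060 against 6258 for IL-4 against IFN-γ, 2486 to 6809 against 5744 for these with LPS and 463 to 3380 against 1221 for the difference of their LPS changes. Median scaling moved the share of calls that were higher from 49% to 77.8% for IFN-γ alone, from 46.8% to 72.6% for IFN-γ with LPS against LPS, from 53.2% to 27.6% for IL-4 against IFN-γ, from 54.4% to 25.4% for these with LPS, from 48.7% to 37.7% for IL-4 with LPS against LPS and from 36.5% to 25.5% for the IFN-γ interaction (18.3% with normexp). Normexp gave 62.5% for IFN-γ alone and moved the difference of LPS changes from 65.8% to 85.1%, and quantile normalization moved LPS after IL-4 from 47.9% to 37.7%. The alternative that takes the deposited table of processed values was not run, since its columns match other arrays. Low signal limits the precision of Zfp36l2, with LPS arrays at 33 to 143 intensity units.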
